A study of Mus musculus with 24 samples.

Results

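The 12 whole-heart RNA libraries labelled batch 2 were set against the 12 labelled batch 1, and these are all 24 libraries of the study. Membership was taken from the batch label alone. Each batch held 3 libraries of each of 4 genotypes, so genotype entered the test as a covariate. The genotypes concern Fkbp1a, the gene of FKBP12, a small immunophilin known as the receptor of the drug tacrolimus and as a partner of ryanodine receptors. FKl/l mice carried floxed Fkbp1a and no Cre. FKl/l MCK+ mice also carried Cre driven by the muscle creatine kinase promoter, and FKl/l MHC+ mice carried Cre driven by the cardiac α-myosin heavy chain promoter, which the study's design describes as active earlier in development. MHC CRE Only mice carried the latter driver, with no floxed allele in their label. A library is named by genotype, batch and number, so that FKl/l 2-3 is library 3 of that genotype in batch 2. The sources used here give neither what differed between the batches nor the age, sex and strain of the mice. Whether the libraries stem from separate animals is also not stated, and p-values then reflect only spread among libraries, which may be technical.

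A batch difference in heart RNA is read against what a heart mostly contains. Cardiomyocytes are packed with mitochondria, and the respiratory chain is built from subunits encoded in the mitochondrial genome and in the nucleus. Contraction depends on sarcomere proteins and on calcium released by the ryanodine receptor and returned to the sarcoplasmic reticulum by the pump SERCA2. Immediate early genes such as Fos and Nr4a1 are transcribed within minutes of a stimulus, clock genes vary with the time of day, and heat shock genes respond to damaged protein. Ribosomal protein mRNAs are short and abundant, and many start with a run of pyrimidines through which their translation is controlled.

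Depth ran from 32861129 to 40412640 counts in gene rows in batch 1 and from 27799403 to 38968458 in batch 2. Levels are CPM, counts scaled to a common library size, on totals scaled by the trimmed mean of M values (TMM). Fkbp1a lay between 121 and 147 CPM in 11 of the 12 libraries of the genotypes without deletion and between 43.5 and 81.1 CPM in the 12 libraries of the deletion genotypes. The remaining library, labelled MHC CRE Only 1-3, had 81.7 CPM. That library also went against its batch label. Among the 949 genes whose other libraries did not overlap between batches, it lay within the range of batch 2 for 708 (74.6%), between the batches for 133 and within batch 1 for 108. The next highest share of such genes in the other batch's range was 18.9%, for FKl/l MHC+ 2-2. Leaving it out changed the call of 2 genes named here, Fkbp1a and mt-Co1, and the list counts that it moved by over 1.5 times are given with and without it. Transcripts of lung and airway epithelium summed to 1173 CPM in MHC CRE Only 2-3 and to 456 in FKl/l 1-1, where the next library had 96.2 CPM, and none of the 12 such markers tested was called between batches. Cardiomyocyte markers were present throughout, at a summed 64156 to 73570 CPM in batch 1 and 55973 to 63777 in batch 2, with no overlap. Of the 12 tested, 7 were called lower in batch 2 and 2 higher. Their median log2 fold change was -0.20, or -0.02 with library sizes left unscaled. Y-linked transcripts were present in every library, at a summed level of up to 96.3 CPM, and Xist and Tsix together reached at most 5.31 CPM.

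Of 16018 genes tested, 6158 (38.4%) differed between batches at an adjusted p under 0.05 in edgeR's quasi-likelihood test, 3560 (22.2%) higher in batch 2 and 2598 (16.2%) lower. Transcripts of the mitochondrial genome, ribosomal proteins and several sarcomere proteins were lower in batch 2. Most nuclear subunits of the respiratory chain outside complex II were lower too. Enzymes of the tricarboxylic acid cycle and of branched-chain amino acid breakdown, ion channels and immediate early genes were more often higher than lower. Most differences were small: 2416 of the called genes differed by less than 1.2-fold and 212 by at least 2-fold, and 1227 were called when tested against a fold of 1.2 (474 higher, 753 lower). In 241 called genes (1.50% of those tested) the 12 values of a batch all lay above the 12 of the other, 50 of them higher and 191 lower in batch 2. Without the library labelled MHC CRE Only 1-3 there were 3940 higher (24.6%) and 2766 lower (17.3%). The genes that did not overlap then numbered 949, and their split was near even, with 481 higher and 468 lower in batch 2. The direction of small differences depended on scaling. With library sizes left unscaled, 6950 genes were called higher and 1024 lower, and the median log2 fold change of all genes was 0.20 instead of 0.02. Other scalings gave more even splits: 3111 higher and 2910 lower with edgeR's RLE factors (median -0.005), and 3175 and 3013 with DESeq2 (median -0.006). With mitochondrial genes left out there were 3240 higher and 2778 lower (median 0.003). Counts and medians of lists are therefore to be read beside those of all genes, 22.2% higher, 16.2% lower and a median of 0.02. Medians that changed sign without scaling are given beside the list.

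**Figure D1:**
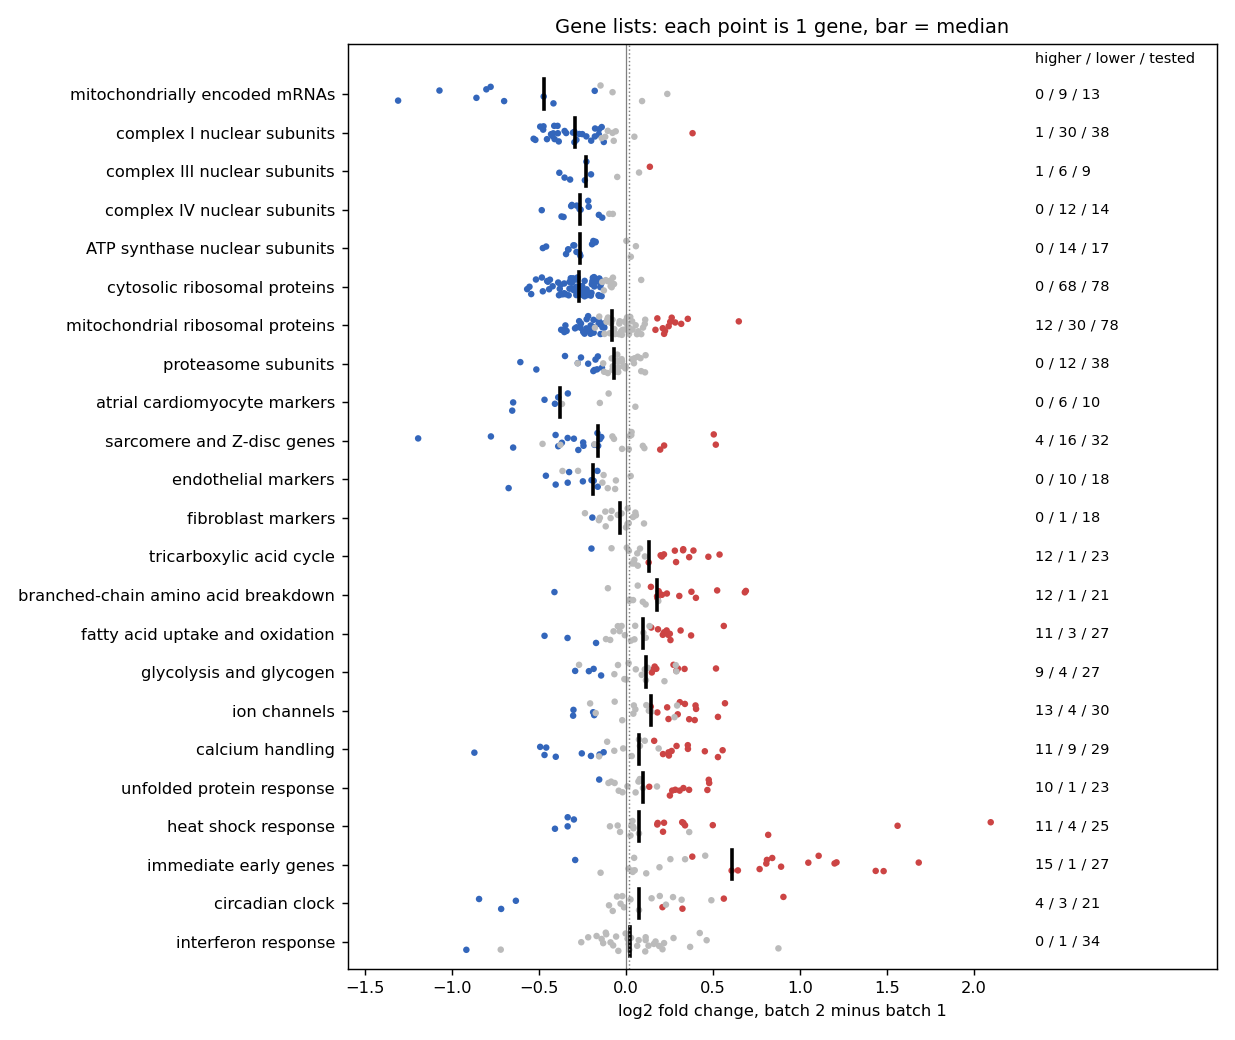
Log2 fold change (batch 2 minus batch 1, horizontal axis) of every tested gene in 23 gene lists, with 1 point per gene, red for genes called higher, blue for genes called lower and grey for genes not called. Black bars are list medians, the dotted line is the median of all genes (0.02), and the numbers at the right count genes called higher, called lower and tested, such as 0, 68 and 78 for cytosolic ribosomal proteins and 15, 1 and 27 for immediate early genes.

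Mitochondrially encoded genes took a smaller share of the counts in batch 2. The share ran from 27.6% to 36.5% in batch 1 (median 35.0%) and from 25.7% to 29.9% in batch 2 (median 28.7%). Only FKl/l 1-3 and FKl/l MCK+ 1-2, at 27.6% and 29.1%, fell into the range of batch 2, and the library labelled MHC CRE Only 1-3 lay with batch 1 at 36.2%. The means were 34.0 ± 2.96% and 28.2 ± 1.35% (SD, n = 12 each), a difference of -5.77 percentage points (p = 0.000163, exact two-sided permutation of batch labels within genotype, smallest possible p 1.25e-05). In each genotype alone the difference was negative, at -2.87 points in FKl/l, -8.78 in MHC CRE Only, -5.00 in FKl/l MCK+ and -6.43 in FKl/l MHC+. A comparison of 3 with 3 libraries cannot go below a two-sided p of 0.1.

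Of the 13 mitochondrial mRNAs, 9 were lower in batch 2, none was higher, and the median log2 fold change was -0.47. By their own rows the most reduced encoded cytochrome oxidase and ATP synthase subunits, and both of these share identical stretches with nuclear copies. mt-Co3, which encodes subunit 3 of cytochrome oxidase, lay between 12379 and 25741 CPM in batch 1 (median 19453) and between 6604 and 9318 in batch 2 (median 7616), with no overlap (log2 fold change -1.31 ± 0.08 SE, adjusted p = 5.39e-12). mt-Atp6, a subunit of the proton channel of ATP synthase, ran from 5332 to 11909 CPM and from 2683 to 5248 (log2 fold change -1.07 ± 0.11, adjusted p = 1.99e-08). mt-Nd6, the complex I subunit encoded on the opposite strand from the other mRNAs, had medians of 4508 and 2506 CPM, again with all 12 values of batch 2 below all 12 of batch 1 (-0.80 on the log2 scale). mt-Nd3, another complex I subunit, did not overlap either (-0.78). The very abundant mt-Co2 (-0.70) and mt-Nd4 (-0.86), subunits of cytochrome oxidase and complex I, each overlapped through 1 library of batch 1. mt-Co1, the catalytic subunit of cytochrome oxidase and the most abundant of the 13, differed least of the called ones: its median was 100430 CPM in batch 1 and 87383 in batch 2, 4 batch 1 libraries lay within the range of batch 2, the call was lost in 17 of 24 fits that left out a library (adjusted p up to 0.0863), and the sign turned without scaling (0.01). mt-Nd2, mt-Nd5, mt-Nd4l and mt-Atp8 were not called, at -0.15, 0.09, 0.24 and -0.08. The mitochondrial ribosomal RNAs were both lower: mt-Rnr1 ran from 7801 to 11907 CPM in batch 1 and from 5638 to 6951 in batch 2 (-0.61 ± 0.06, adjusted p = 8.09e-09), and mt-Rnr2 had medians of 27695 and 19887 CPM (-0.39 ± 0.08, adjusted p = 0.000169).

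Part of the mitochondrial signal is shared with nuclear copies of mitochondrial DNA, and reads from identical stretches cannot be assigned to either. On chromosome 1 (GRCm38) Gm28437 matches mt-Co3 in 783 of 783 bases and Gm10925 matches mt-Atp6 in 678 of 678. There too Gm28438 matches mt-Nd3 in 342 of 342 aligned bases. Gm29216 (chr1:24615706-24616197, minus strand) matches mt-Co1 over a stretch of 483 bases with 1 difference, T13A, counted from 1 at the 5′ end of Gm29216 with the base of Gm29216 first. Both sequences around that difference are shown because it is the single base of the stretch at which a read could tell the gene from its copy, and the capital marks it.
Gm29216, bases 10 to 43: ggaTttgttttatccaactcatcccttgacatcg
mt-Co1, bases 1063 to 1096: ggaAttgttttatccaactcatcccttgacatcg
Gm29216 had the largest difference of these, with 1634 to 10523 CPM in batch 1 (median 6928) and 576 to 1436 in batch 2 (median 876). The ranges did not overlap (log2 fold change -2.85 ± 0.21, adjusted p = 2.39e-09), and with MHC CRE Only 1-3 left out, which was the lowest of batch 1, the batch 1 range began at 4940 CPM. Summed with their copies, mt-Co3 went from a mean of 48505 CPM to 26490, mt-Atp6 from 16731 to 9028 and mt-Co1 from 104300 to 86850. As log2 ratios of means these sums differed by -0.87, -0.89 and -0.26. The sums for mt-Nd4 and mt-Nd3 differed by -0.87 and -0.82, so mt-Co3 and mt-Atp6 no longer stood apart from them. The copies made up 59.4% of the mt-Co3 sum in batch 1 and 70.2% in batch 2, and 6.77% and 1.11% of the mt-Co1 sum. Of the mt-Nd3 sum the copy made up 63.3% and 62.1%. Pseudogenes as a class took 3.61 to 5.49% of counts in batch 1 and 2.73 to 3.28% in batch 2, with no overlap. Nearly all of that share was the mitochondrial copies themselves, at 3.54 to 5.42% and 2.65 to 3.20%. Of 34 unprocessed pseudogenes tested, 4 were higher and 5 lower.

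**Figure D2:**
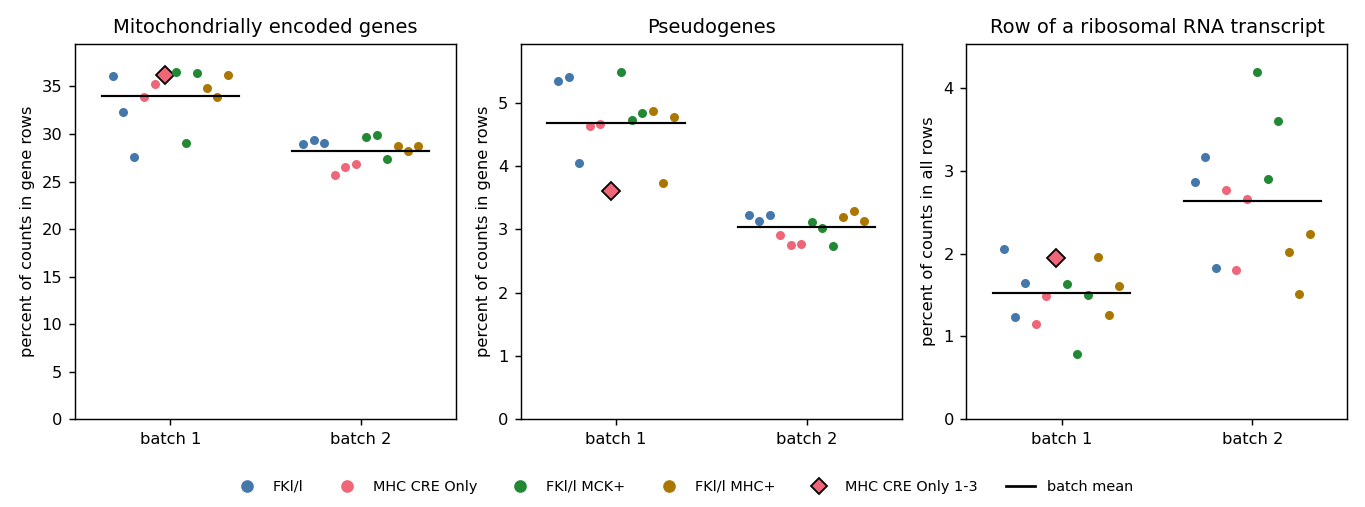
Percent of counts (vertical axes) taken by mitochondrially encoded genes, by pseudogenes and by the row of a ribosomal RNA transcript in each of the 12 libraries of either batch, coloured by genotype, with black lines for batch means and a diamond for the library labelled MHC CRE Only 1-3. Mitochondrial and pseudogene shares are lower in batch 2 (mitochondrial medians 35.0% and 28.7%), and the ribosomal RNA row is higher (medians 1.55% and 2.72%).

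Nuclear subunits of the respiratory chain outside complex II were lower in batch 2 with few exceptions. Complex II was not among the subunits counted here, and its Sdha, given below with the tricarboxylic acid cycle, was higher. Of the 78 nuclear subunits of complexes I, III and IV and of ATP synthase tested, 62 were lower and 2 were higher, with a median of -0.27 against 0.02 for all genes. By complex, 30 of 38 complex I subunits, 6 of 9 of complex III, 12 of 14 of complex IV and 14 of 17 of ATP synthase were lower. Left unscaled, the 4 lists together kept a negative median (-0.08), with 29 called lower and 8 higher.

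Among complex I subunits, Ndufs6, an accessory subunit close to the iron-sulphur clusters, lay between 226 and 304 CPM in batch 1 and between 204 and 222 in batch 2 (log2 fold change -0.42 ± 0.04, adjusted p = 2.04e-08). All 12 batch 2 libraries were below all of batch 1. The accessory subunits Ndufa13 (-0.52 ± 0.05) and Ndufb7 (-0.48 ± 0.05) overlapped only through the library labelled MHC CRE Only 1-3, at 198 and 281 CPM. Ndufs1, the large core subunit that carries iron-sulphur clusters, went the opposite way: it ran from 273 to 378 CPM in batch 1 and from 387 to 473 in batch 2, with no overlap (0.38 ± 0.05, adjusted p = 6.78e-07). In complex III, the small hinge protein Uqcrh had medians of 463 and 367 CPM (-0.35 ± 0.04, adjusted p = 2.72e-07). The core protein Uqcrc2 was the other subunit called higher, by 0.14 ± 0.05 (adjusted p = 0.0165), with 9 of the 12 batch 1 libraries inside the batch 2 range and the call lost without FKl/l MCK+ 1-2 (adjusted p = 0.0922).

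In complex IV, Cox6a2, the isoform of subunit 6A of heart and skeletal muscle, ran from 1176 to 1552 CPM in batch 1 (median 1332) and from 855 to 1046 in batch 2 (median 962), with no overlap (log2 fold change -0.48 ± 0.05, adjusted p = 9.78e-09). Cox6b1, which bridges the monomers of the complex, did not overlap either, by a small margin: its lowest batch 1 value and highest batch 2 value both round to 459 CPM (-0.31 ± 0.04, adjusted p = 5.72e-07). Of the small ATP synthase subunits, Atp5k lay between 212 and 306 CPM in batch 1 and between 172 and 207 in batch 2 (-0.46 ± 0.05), and Atp5e had medians of 346 and 242 CPM (-0.48 ± 0.06, adjusted p = 3.99e-07). Atp5e overlapped through the library labelled MHC CRE Only 1-3 alone.

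**Figure D3:**
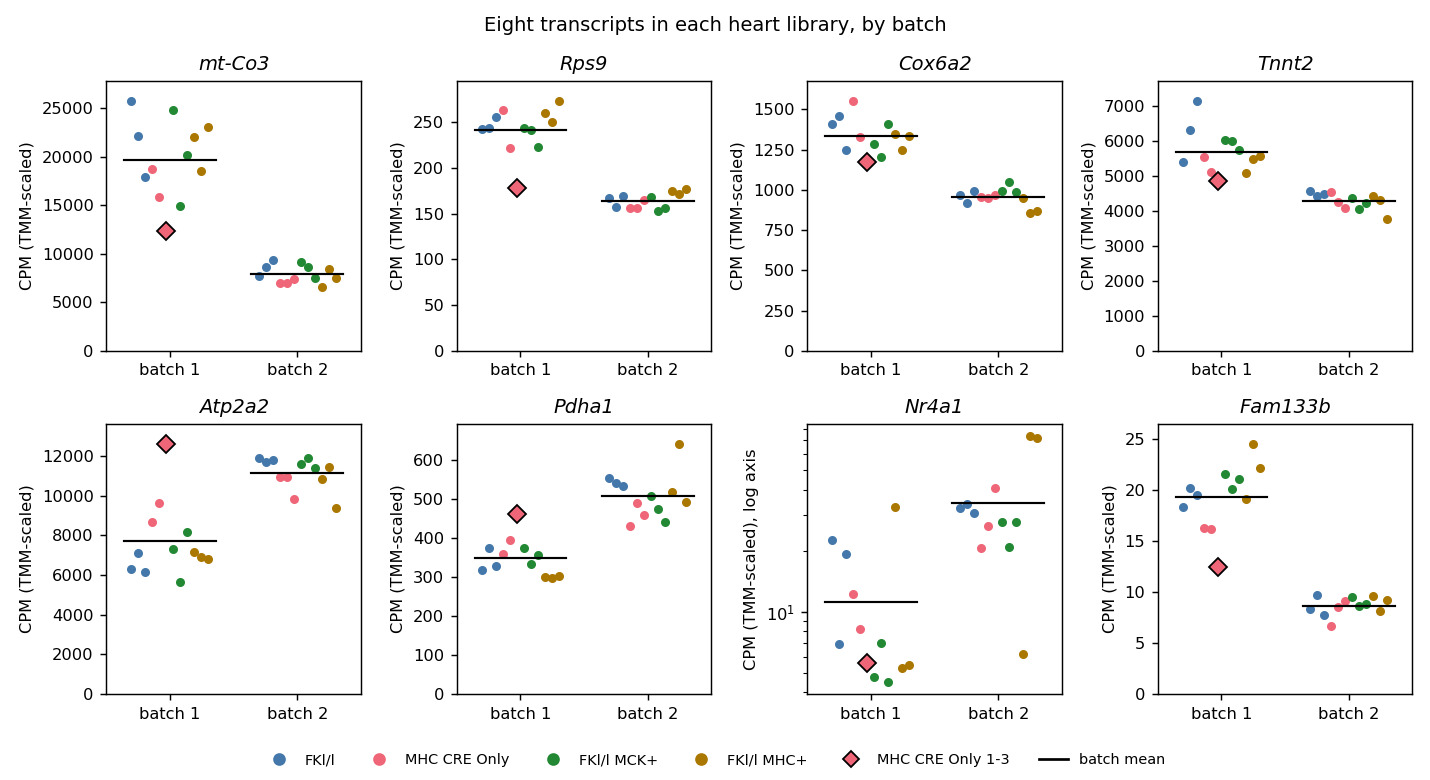
TMM-scaled CPM (vertical axes, a log axis for Nr4a1 only) of 8 transcripts in the 12 libraries of either batch, coloured by genotype, with black lines for batch means and a diamond for the library labelled MHC CRE Only 1-3. mt-Co3, Rps9, Cox6a2, Tnnt2 and Fam133b do not overlap between batches, Pdha1 overlaps through the diamond alone, the diamond is the highest library for Atp2a2 at 12590 CPM, and Nr4a1 overlaps widely.

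Cytosolic ribosomal protein genes were lower in batch 2 almost as a whole. Of 78 tested, 68 were lower and none was higher, with a median of -0.27 and a range from -0.57 to 0.09, and 72 were lower without the library labelled MHC CRE Only 1-3. Left unscaled, the median stayed negative at -0.09, with 28 called lower and 3 higher. Rps9, a protein of the small subunit, ran from 179 to 274 CPM in batch 1 (median 244) and from 153 to 177 in batch 2 (median 166), with no overlap (log2 fold change -0.55 ± 0.05, adjusted p = 6.44e-10). Rps12 had medians of 131 and 87.7 CPM (-0.54 ± 0.05, adjusted p = 4.90e-10) and Rps29 of 167 and 124 (-0.44 ± 0.04, adjusted p = 7.48e-09), also without overlap. Rpl23 and Rps23, proteins of the large and small subunit, overlapped only through the library labelled MHC CRE Only 1-3, at 191 and 93.6 CPM.

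The list was also described by the start of its transcripts. A start with C followed by 4 bases of C or T, the terminal pyrimidine run known from many mRNAs of the translation machinery, was found at the RefSeq start (GRCm38.p6) of 14 of 57 ribosomal protein genes with a listed promoter (24.6%), of 11 of the 48 of these called lower (22.9%), and of 357 of 11502 genes tested (3.10%). Among all genes called lower the share was 4.08% and among those called higher 2.52%. Only a C at the exact annotated first base was counted, so a run beginning at a neighbouring base could be missed. The starts of 3 genes called lower are shown as examples of that run, with 5 bases before the start and 15 from it, the run from the first transcribed base in capitals.
Rpl35a (chr16:33056477-33056496, plus strand): ccttcCTCTTTCCgccatct
Rps6 (chr4:86857353-86857372, minus strand): cgggcCTCTTTTTCgtgacg
Rpl35 (chr2:39005117-39005136, minus strand): ctttcCTCTTTCTCTCgaac
Rpl35a ran from 81.8 to 122 CPM in batch 1 and from 78.4 to 85.4 in batch 2 (log2 fold change -0.45 ± 0.05), Rps6 had medians of 319 and 265 CPM (-0.30 ± 0.05) and Rpl35 of 141 and 111 (-0.31 ± 0.05). In each of the 3 the library labelled MHC CRE Only 1-3 was the only one of batch 1 in the range of batch 2. Rpl35 was not called without scaling (adjusted p = 0.103).

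Mitochondrial ribosomal proteins, all encoded in the nucleus, were split: 30 of 78 were lower and 12 higher, with a median of -0.08 that became 0.10 without scaling. Mrps21 (-0.37), Mrpl54 (-0.36) and Mrps15 (-0.35) were the lowest and Mrpl1 (0.65) and Mrpl37 (0.36) the highest. Of 38 proteasome subunits 12 were lower and none was higher (median -0.07, 0.11 without scaling), and 13 were lower and 2 higher without the library labelled MHC CRE Only 1-3. Psmc1, an ATPase of the regulatory particle, ran from 127 to 176 CPM in batch 1 and from 94.3 to 109 in batch 2 with no overlap (log2 fold change -0.61 ± 0.05, adjusted p = 1.07e-10). Psmd1, the large scaffold of that particle, had medians of 212 and 145 CPM (-0.51 ± 0.06, adjusted p = 1.45e-07).

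Sarcomere and Z-disc genes were lower in batch 2 more often than higher, with 16 of 32 lower, 4 higher and a median of -0.16, which became 0.02 without scaling. Tnnt2, cardiac troponin T, lay between 4861 and 7139 CPM in batch 1 (median 5546) and between 3756 and 4566 in batch 2 (median 4338). The ranges did not overlap (log2 fold change -0.40 ± 0.05, adjusted p = 5.88e-07). Myl2, the ventricular regulatory light chain, had medians of 7474 and 5529 CPM (-0.37 ± 0.06, adjusted p = 2.16e-05), with 2 batch 1 libraries in the range of batch 2. Tnni3, cardiac troponin I, was lower by less (-0.27 ± 0.05, adjusted p = 0.000204), and its call and that of the oxygen store Mb (-0.28 ± 0.05) were lost without scaling (adjusted p = 0.172 and 0.127). Ankrd1, a stretch-responsive titin-binding protein, had the largest difference of the list: 1327 to 3329 CPM in batch 1 and 493 to 2191 in batch 2 (-1.19 ± 0.10, adjusted p = 3.10e-09). Its ranges overlapped by 8 libraries of batch 1, and FKl/l MHC+ libraries were the highest of either batch, while the batch difference was negative in all 4 genotypes (-1.53, -1.22, -1.10 and -0.93 in FKl/l, MHC CRE Only, FKl/l MCK+ and FKl/l MHC+). The 4 called higher were Ankrd23 (0.52), Xirp1 (0.50), Nebl (0.22) and Ldb3 (0.20), proteins of the Z-disc and its attachments.

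Atrial markers were lower in batch 2, with 6 of 10 called lower, none higher and a median of -0.38. Their summed level ran from 3484 to 9445 CPM in batch 1 and from 2635 to 4133 in batch 2, and was highest in FKl/l 1-3 and FKl/l 1-1. Myl7, the atrial light chain, lay between 609 and 1123 CPM in batch 1 (median 865) and between 392 and 684 in batch 2 (median 558), overlapping through the library labelled MHC CRE Only 1-3 alone (log2 fold change -0.65 ± 0.08, adjusted p = 6.76e-07). Nppa, the atrial natriuretic peptide, had medians of 2348 and 1502 CPM (-0.65 ± 0.16, adjusted p = 0.00285), and Sln, the small inhibitor of SERCA in the atrium, of 138 and 104 (-0.47 ± 0.11, adjusted p = 0.00216, not called without scaling, adjusted p = 0.0983). Stard10, a lipid transfer protein, went the same way (-0.41 ± 0.07, adjusted p = 6.32e-05). In these mixed-tissue samples, fewer cells of a type and less RNA per cell cannot be told apart, and whether the atrial share of the tissue played a part in the sarcomere list was not tested.

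Enzymes of the tricarboxylic acid cycle were more often higher than lower in batch 2. Of 23 genes of the cycle and pyruvate dehydrogenase, 12 were higher and 1, Mdh2 (-0.20), was lower, with a median of 0.13, and 2 were lower without the library labelled MHC CRE Only 1-3. Pdha1, the catalytic subunit of pyruvate dehydrogenase, ran from 297 to 462 CPM in batch 1 (median 345) and from 432 to 641 in batch 2 (median 500). Its only batch 1 library within the range of batch 2 was the one labelled MHC CRE Only 1-3, at 462 CPM (log2 fold change 0.54 ± 0.07, adjusted p = 7.84e-07). Dld, the dihydrolipoamide dehydrogenase shared by several dehydrogenase complexes, lay between 137 and 191 CPM and between 193 and 275, with no overlap (0.47 ± 0.06, adjusted p = 1.50e-06). Sdha, the flavoprotein of complex II and thus also of the respiratory chain, had medians of 713 and 901 CPM (0.33 ± 0.05), and Cs, citrate synthase, of 595 and 735 (0.29 ± 0.05), each with 3 batch 1 libraries in the batch 2 range. Dlat, the acetyltransferase of the pyruvate dehydrogenase complex, was 0.33 ± 0.06 higher (adjusted p = 5.20e-05).

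In branched-chain amino acid breakdown 12 of 21 genes were higher and 1, Pccb (-0.41), was lower (median 0.18), with 2 lower when MHC CRE Only 1-3 was left out. Aldh6a1, the methylmalonate semialdehyde dehydrogenase of valine breakdown, ran from 42.1 to 82.7 CPM in batch 1 and from 72.5 to 104 in batch 2, and only the library labelled MHC CRE Only 1-3 lay in the range of batch 2 (log2 fold change 0.69 ± 0.08, adjusted p = 5.68e-07). Acadsb, the short branched-chain acyl-CoA dehydrogenase, had medians of 36.2 and 58.5 CPM (0.68 ± 0.09, adjusted p = 2.86e-06), and Ivd, isovaleryl-CoA dehydrogenase, of 106 and 150 (0.52 ± 0.07, adjusted p = 8.46e-07). Fatty acid uptake and oxidation was less uniform, with 11 of 27 higher and 3 lower (median 0.10). Acsl1, which activates long-chain fatty acids, had medians of 327 and 523 CPM (0.56 ± 0.08, adjusted p = 4.22e-06), and Hadhb, of the trifunctional protein, of 596 and 759 (0.37 ± 0.06). Lpl, the lipase that frees fatty acids from plasma lipoproteins, was lower: 2290 to 5077 CPM in batch 1 (median 4586) and 2591 to 3510 in batch 2 (median 3010), at -0.47 ± 0.09 (adjusted p = 8.66e-05). Etfb, an electron carrier of fatty acid oxidation, was also lower (-0.34 ± 0.06), and the third was Eci2 (-0.17).

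Of 27 genes of glycolysis and glycogen 9 were higher and 4 lower (median 0.11), beside 22.2% and 16.2% of all genes. Gys1, muscle glycogen synthase, ran from 68.8 to 145 CPM in batch 1 and from 117 to 136 in batch 2. The 145 CPM belonged to the library labelled MHC CRE Only 1-3, and the other 11 of batch 1 had at most 108 (log2 fold change 0.52 ± 0.08, adjusted p = 7.26e-06). Pfkm, the muscle phosphofructokinase, was 0.27 ± 0.06 higher (adjusted p = 0.000317), while Aldoa, aldolase, was lower with medians of 4042 and 3242 CPM (-0.29 ± 0.05, adjusted p = 5.99e-05). The other 3 lower were Ldha (-0.21), Pgam2 (-0.19) and Ldhb (-0.14). Insulin receptor substrates were higher: Irs1 ran from 2.42 to 6.12 CPM and from 4.58 to 8.53 (1.07 ± 0.12, adjusted p = 8.15e-08) and Irs2 from 4.98 to 11.98 and from 10.2 to 32.1 (0.96 ± 0.17, adjusted p = 0.000172).

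Calcium-handling genes split, with 11 of 29 higher and 9 lower (median 0.07). Atp2a2, which encodes SERCA2, lay between 5640 and 12590 CPM in batch 1 (median 7129) and between 9356 and 11882 in batch 2 (median 11420). Its highest library was the one labelled MHC CRE Only 1-3, and the other batch 1 libraries reached 9612 CPM (log2 fold change 0.56 ± 0.09, adjusted p = 9.55e-06). Its inhibitor Pln had medians of 1995 and 2614 CPM (0.36 ± 0.06, adjusted p = 5.61e-05), and Ryr2, the ryanodine receptor with which FKBP12 associates, of 575 and 677 (0.26 ± 0.06, adjusted p = 0.000599). Trdn, triadin, which anchors calsequestrin at that receptor, went down: 119 to 307 CPM in batch 1 (median 254) and 111 to 154 in batch 2 (median 131), with only the library labelled MHC CRE Only 1-3 in the range of batch 2 (-0.87 ± 0.08, adjusted p = 1.98e-09). Hrc, the histidine-rich calcium-binding protein of the same compartment, was lower as well, with medians of 1111 and 810 CPM (-0.49 ± 0.06, adjusted p = 9.05e-08). Smdt1, a small subunit of the mitochondrial calcium uniporter, had medians of 93.4 and 68.0 (-0.40 ± 0.05).

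Ion channels were more often higher, 13 of 30 against 4 lower (median 0.14). Gja1, the main connexin of ventricular gap junctions, ran from 116 to 177 CPM in batch 1 and from 178 to 273 in batch 2, with no overlap (log2 fold change 0.57 ± 0.06, adjusted p = 6.00e-08). Cacnb2, an L-type calcium channel subunit, had medians of 38.8 and 56.3 CPM (0.53 ± 0.10, adjusted p = 0.000125), and Kcnd3, of the transient outward potassium current, of 9.42 and 12.4 (0.36 ± 0.06, adjusted p = 1.42e-05). The potassium channels Kcnd2, Kcnj2 and Kcnj12 (0.40 each) were also higher. Those lower included Cacna1h and Gja5 (-0.30 each) and Kcnk3 (-0.19).

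Immediate early genes were mostly higher in batch 2, with 15 of 27 called higher, 1, Klf6 (-0.29), lower and a median of 0.61. The differences were large but the libraries overlapped, and none of the 27 was free of overlap. Nr4a1, an orphan nuclear receptor, ran from 4.52 to 32.7 CPM in batch 1 (median 6.96) and from 6.16 to 73.2 in batch 2 (median 29.2), at 1.68 ± 0.37 on the log2 scale (adjusted p = 0.00112). FKl/l MHC+ 2-2 and 2-3, at 73.2 and 72.2 CPM, were far above the next library, MHC CRE Only 2-3 at 40.6, and 7 batch 1 libraries were in the range of batch 2. Fos had medians of 2.34 and 8.69 CPM (1.48 ± 0.46, adjusted p = 0.0147) and ranges of 1.02 to 11.7 and 1.19 to 22.5, so that 10 of the 12 batch 1 libraries lay inside the range of batch 2. Nr4a3, a relative of Nr4a1, had medians of 1.46 and 4.13 CPM (1.44 ± 0.36, adjusted p = 0.00349). The AP-1 subunits Junb (medians 13.5 and 23.1 CPM, 0.89 ± 0.18) and Fosl2 (14.4 and 25.4, 0.81 ± 0.16), the MAP kinase phosphatase Dusp1 (47.7 and 77.1, 0.77 ± 0.13, adjusted p = 8.30e-05) and the mRNA decay factor Zfp36 (0.61 ± 0.14) went the same way. Sik1, a kinase induced by cyclic AMP and not a member of the list, ran from 5.46 to 16.5 CPM and from 9.08 to 60.6 (1.64 ± 0.26, adjusted p = 5.21e-05). Thbs1, a matrix protein outside the list, was also highest in FKl/l MHC+ 2-2 and 2-3, at 22.7 and 20.9 CPM (0.96 ± 0.21).

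The promoters of the called members were searched for a motif known from many early response genes. The 5-base core of the cyclic AMP response element, TGACG on either strand (CGTCA as its reverse), occurs in the 250 bases before the RefSeq start (GRCm38.p6) of 11 of the 13 immediate early genes called higher that have a listed promoter (84.6%), of 14 of the 21 tested ones with a promoter (66.7%), and of 3330 of 11502 genes tested (29.0%). It is in 35.2% of all genes called higher and 28.7% of those called lower. The full 8-base element TGACGTCA, which contains the core on both strands, is in 3 of the 13 (23.1%) and in 2.83% of genes tested. A match is a description of letters and not a binding site. The 250 bases before the start of 4 of these genes are shown, 5′ to 3′ on the strand of the gene, as the members with the largest differences or with the full element, and capitals mark the matches.
Nr4a1 (chr15:101266596-101266845, plus strand): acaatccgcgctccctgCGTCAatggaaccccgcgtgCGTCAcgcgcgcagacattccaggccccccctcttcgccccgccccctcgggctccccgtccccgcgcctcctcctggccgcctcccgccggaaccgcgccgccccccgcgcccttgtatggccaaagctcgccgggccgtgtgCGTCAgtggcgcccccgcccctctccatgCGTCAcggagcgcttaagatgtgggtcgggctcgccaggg
Fos (chr12:85473640-85473889, plus strand): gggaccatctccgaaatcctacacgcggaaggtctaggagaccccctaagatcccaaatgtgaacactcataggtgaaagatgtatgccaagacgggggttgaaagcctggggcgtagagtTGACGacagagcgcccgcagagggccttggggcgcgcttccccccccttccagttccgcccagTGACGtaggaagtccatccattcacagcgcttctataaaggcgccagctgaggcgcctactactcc
Nr4a3 (chr4:48045055-48045304, plus strand): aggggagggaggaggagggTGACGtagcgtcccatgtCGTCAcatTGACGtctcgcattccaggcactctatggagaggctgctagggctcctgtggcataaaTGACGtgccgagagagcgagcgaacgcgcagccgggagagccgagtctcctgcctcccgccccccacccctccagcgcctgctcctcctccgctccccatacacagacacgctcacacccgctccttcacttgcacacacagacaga
Dusp1 (chr17:26508473-26508722, minus strand): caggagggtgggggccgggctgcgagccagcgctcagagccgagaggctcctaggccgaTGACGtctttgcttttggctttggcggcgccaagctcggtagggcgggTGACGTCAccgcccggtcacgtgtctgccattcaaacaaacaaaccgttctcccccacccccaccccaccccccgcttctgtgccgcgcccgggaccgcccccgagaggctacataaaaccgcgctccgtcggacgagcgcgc
The Nr4a1 and Nr4a3 windows hold 4 matches of the core each, that of Fos 2, and that of Dusp1 3, of which 2 make up the full element.

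Stress-response lists were mixed. Of 25 heat shock genes 11 were higher and 4 lower (median 0.08). The inducible Hsp70 gene Hspa1b had medians of 3.09 and 7.47 CPM and reached 19.3 in batch 1 and 119 in batch 2 (log2 fold change 2.10 ± 0.61, adjusted p = 0.00984). Its highest libraries were FKl/l 2-3, FKl/l MHC+ 2-3 and FKl/l 2-2, at 119, 83.7 and 58.9 CPM, and 10 of the 12 batch 1 libraries lay in the range of batch 2. Its neighbour Hspa1a, which shares nearly all its sequence so that reads may be split between them, was 1.56 ± 0.59 higher (adjusted p = 0.0415), a call lost in 10 of 24 fits that left out a library (adjusted p up to 0.112). The constitutive Hsp90ab1 (medians 1186 and 892 CPM, -0.33 ± 0.05) and the small chaperone Cryab (1694 and 1330, -0.30 ± 0.06) were lower, while the co-chaperone Bag3 was higher (244 and 301, 0.32 ± 0.07). In the unfolded protein response 10 of 23 were higher and 1, Dnajb11 (-0.15), lower (median 0.10). Hyou1, a chaperone of the endoplasmic reticulum, ran from 27.6 to 42.2 CPM in batch 1 and from 41.9 to 53.7 in batch 2 (0.48 ± 0.04, adjusted p = 2.08e-09). The transcription factor Xbp1 (0.36 ± 0.05) and the co-chaperone Dnajb9 (0.47 ± 0.07) were also higher. The integrated stress response had 7 of 21 higher and 4 lower, the latter including Ddit3 (-0.33) and Trib3 (-0.30). Over all genes 22.2% were higher and 16.2% lower.

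Of 21 clock genes 4 were higher and 3 lower with a median of 0.08, near the 22.2% and 16.2% of all genes. Without the library labelled MHC CRE Only 1-3, 9 were higher and 3 lower, with a median of 0.15, beside 24.6% and 17.3% of all genes. Rora, an activator of Bmal1, ran from 30.6 to 45.0 CPM in batch 1 and from 20.1 to 25.5 in batch 2 with no overlap (log2 fold change -0.72 ± 0.05, adjusted p = 5.40e-11). Csnk1e, the kinase that marks PER proteins for decay, reached 58.9 CPM in batch 1 and 35.0 in batch 2 (-0.63 ± 0.07, adjusted p = 1.99e-08). Per1 (0.91), which is also an early response gene, and the repressor Nr1d2 (0.56 ± 0.14, adjusted p = 0.00329) were higher. Ciart, a repressor of the clock, was lower (-0.84 ± 0.23, adjusted p = 0.00576), and its highest value, 8.05 CPM, was in the library labelled MHC CRE Only 1-3, where Nr1d2 also had its highest, 52.7 CPM. Glucocorticoid targets split too, 7 of 19 higher and 3 lower, beside 22.2% and 16.2% of all genes. Klf9 had medians of 182 and 109 CPM, and its ranges met at 121 CPM without overlapping (-0.73 ± 0.05, adjusted p = 2.18e-11), and Fkbp5, a co-chaperone of the receptor, was lower (-0.55 ± 0.18, adjusted p = 0.0178, not called without scaling, adjusted p = 0.0559). Klf15 (0.48 ± 0.11, adjusted p = 0.00157) and Tsc22d3 (0.41 ± 0.12, adjusted p = 0.00893) were higher. Of 14 FKBP genes, Fkbp11 (-0.65), Fkbp5 and Fkbp2 (-0.19) were lower and Fkbp14 (0.31) higher, and Fkbp1a was not called (-0.15 ± 0.09, adjusted p = 0.176). Without the library labelled MHC CRE Only 1-3, Fkbp1a was called lower in batch 2 (-0.21, adjusted p = 0.0134). The median of the FKBP list was -0.02 and became 0.16 without scaling.

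Non-coding transcripts that differed were mostly lower in batch 2. In 3 classes the share lower was near the 16.2% of all genes: 16.4% for lincRNAs, 18.8% for antisense and 18.5% for processed transcripts. Their shares higher were 6.01%, 5.05% and 3.02%, beside 22.2%. The lincRNA median was -0.37 in FKl/l and -0.27 in FKl/l MCK+, but 0.01 in MHC CRE Only and 0.06 in FKl/l MHC+. For processed transcripts these were -0.44, -0.33, 0.03 and 0.07. Transcripts of the GENCODE class TEC, meaning still to be tested by experiment, had 187 of 502 lower and 16 higher (37.3% and 3.19%), with a median of -0.40. Transcripts classed as sense-intronic had 14 of 56 lower and 3 higher. Of both classes together 336 lay inside an intron of a tested protein-coding gene on the same strand: 145 of these were lower, 8 higher, and their median was -0.53. The 272 host genes had a median of 0.07, with 41 lower and 90 higher, and 274 of the 336 had a lower log2 fold change than their host. Gm45640 (chr8:90876581-90878476, plus strand, GRCm38), inside the chromatin remodeller gene Chd9, ran from 8.24 to 22.8 CPM in batch 1 and from 3.56 to 5.42 in batch 2, with no overlap (-1.70 ± 0.10, adjusted p = 5.20e-12). Chd9 itself had medians of 19.5 and 17.9 CPM and was not called (-0.10 ± 0.05, adjusted p = 0.170). Gm47494 (chr13:11818248-11821734, minus strand), inside Ryr2, had medians of 0.394 and 0.131 CPM (-1.42 ± 0.35, adjusted p = 0.00208) where Ryr2 was 0.26 higher.

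**Figure D4:**
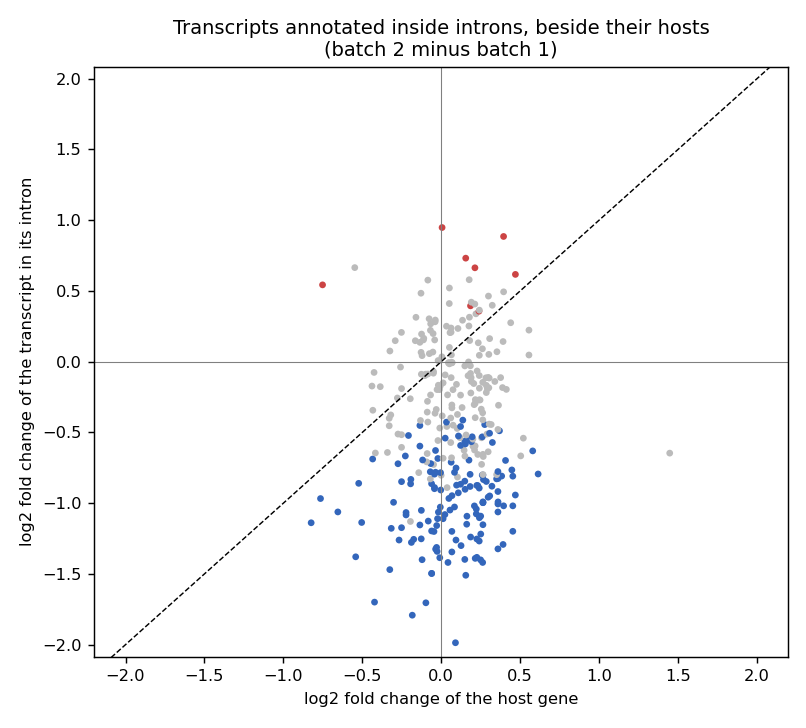
Log2 fold change (batch 2 minus batch 1) of 336 transcripts annotated inside introns on the vertical axis, against that of their host genes on the horizontal axis, with 1 point per transcript. Points fall mostly below the level of their hosts, with medians of -0.53 for the transcripts and 0.07 for the 272 hosts.

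Some long non-coding RNAs retained in the nucleus were lower too, 4 of 12 with none higher, beside 16.2% lower and 22.2% higher of all genes. Of the 4, 1 was the scarcely detected Xist (-1.02). The list median was -0.55 in FKl/l and -0.58 in FKl/l MCK+, but 0.06 in MHC CRE Only and 0.13 in FKl/l MHC+. In 2 of the 12 the batch difference depended on genotype by the interaction test given below. Malat1 lay between 969 and 1577 CPM in batch 1 (median 1204) and between 622 and 1111 in batch 2 (median 756), at -0.64 ± 0.09 (adjusted p = 4.26e-06), and 4 batch 1 libraries were in the range of batch 2. The imprinted Meg3 (medians 26.7 and 15.9 CPM, -0.70 ± 0.10) and Kcnq1ot1 (31.4 and 24.5, -0.38 ± 0.05) were also lower, while Neat1 was not called (-0.13 ± 0.14, adjusted p = 0.514). Splicing factors split, 13 of 36 higher and 8 lower: Luc7l3 had medians of 53.4 and 31.3 CPM (-0.73 ± 0.08, adjusted p = 2.78e-07) and Srsf11 of 53.9 and 39.7 (-0.43 ± 0.07), whereas Rbfox2, a regulator of muscle splicing, had 56.9 and 75.6 (0.38 ± 0.05, adjusted p = 1.65e-06).

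Across 13908 nuclear protein-coding genes the direction also went with transcript length. In the lowest decile of summed exon length (243 to 1782 bases) 5.53% were higher and 32.2% lower, in the ninth decile (7644 to 9886 bases) 32.9% were higher and 11.4% lower, in the longest decile 29.2% were higher and 16.3% lower, and Spearman's rho across genes was 0.19. Genes are not independent replicates, so this is a description. The lowest decile held 40 genes of the cytosolic ribosomal protein list and 42 nuclear respiratory chain subunits, and its other 1311 genes had 5.87% higher and 28.7% lower. GC content had a rho of -0.05 and mean level one of 0.08. The part of transcript length in the differences of these lists was not tested.

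Markers of the other cell types of the heart were examined in the same way. Endothelial markers had 10 of 18 lower and none higher, with a median of -0.19 (-0.01 without scaling), and their summed level ran from 1405 to 1921 CPM in batch 1 and from 1215 to 1475 in batch 2. Flt1, a VEGF receptor, had medians of 76.6 and 55.4 CPM, with only the library labelled MHC CRE Only 1-3 of batch 1 in the range of batch 2 (log2 fold change -0.46 ± 0.05, adjusted p = 1.09e-07). Eng (-0.33 ± 0.04), Emcn (-0.40 ± 0.06), the transcription factor Sox18 (-0.67 ± 0.10) and the junction protein Pecam1 (-0.25 ± 0.04) were lower, the last not without scaling (adjusted p = 0.342). Of 18 fibroblast markers 1 was lower, Dcn (-0.19 ± 0.05, adjusted p = 0.00307, not called without scaling, adjusted p = 0.900), and the summed level overlapped, at 1671 to 2533 and 1693 to 2062 CPM. Without the library labelled MHC CRE Only 1-3 the number lower was 2. Smooth muscle and pericyte markers had 3 of 16 higher and 1 lower, macrophage markers 1 of 21 higher and 4 lower, and lymphocyte markers 1 of 15 lower. Those counts were near or below the shares of all genes, 22.2% higher and 16.2% lower. Without scaling the median changed from -0.04 to 0.14 for fibroblast markers, from -0.03 to 0.15 for smooth muscle and pericyte markers and from -0.12 to 0.05 for macrophage markers. Of 34 interferon-response genes 1 was called, Rsad2, an antiviral enzyme (medians 25.1 and 12.7 CPM, -0.92 ± 0.14, adjusted p = 2.50e-05), and the list's summed level was 1602 CPM in FKl/l 2-2 against 314 to 545 in the other libraries.

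Some of the largest differences among genes with at least 5 CPM were in genes outside these lists. Rad9b, a paralogue of the checkpoint clamp protein RAD9A, ran from 5.16 to 34.7 CPM in batch 1 (median 24.2) and from 2.94 to 5.69 in batch 2 (median 3.91), at -2.46 ± 0.18 on the log2 scale (adjusted p = 3.04e-09). Larp7, which binds 7SK RNA, lay between 22.8 and 75.1 CPM and between 20.96 and 23.7 (-1.32 ± 0.11, adjusted p = 3.06e-09), and Eif2s2, the beta subunit of the initiation factor eIF2, between 70.4 and 226 and between 62.7 and 80.7 (-1.24 ± 0.10, adjusted p = 1.47e-09). For these 3 the library labelled MHC CRE Only 1-3 was the lowest of batch 1 and the only one in the range of batch 2. Fam133b (medians 19.8 and 8.70 CPM, -1.14 ± 0.07), the elongation factor Rtf1 (61.9 and 29.0, -1.11 ± 0.08) and the corepressor Cir1 (30.4 and 13.7, -1.17 ± 0.09) had no overlap with or without it. The smallest p-values belonged to Fam133b, to Nfib, a developmental transcription factor (402 and 200, -0.93 ± 0.06), and to Kif5b, the kinesin heavy chain (270 and 130, -1.04 ± 0.06), each with an adjusted p of 2.33e-12. The transcription factor Sox4 (111 and 48.1, -1.13 ± 0.17) and the chromatin protein Emsy (45.4 and 23.5, -0.92 ± 0.06) were also lower.

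Among genes higher in batch 2, Pm20d2, a peptidase, ran from 0.553 to 4.55 CPM in batch 1 (median 1.62) and from 3.79 to 9.37 in batch 2 (median 5.83), at 1.72 ± 0.25 (adjusted p = 1.47e-05). Taco1, an activator of cytochrome oxidase translation, lay between 6.71 and 16.8 CPM and between 15.8 and 20.99 (1.06 ± 0.10, adjusted p = 1.98e-08). In both, only the library labelled MHC CRE Only 1-3 reached the range of batch 2. Gon4l (1.66 ± 0.45, adjusted p = 0.00607) and Adnp (1.29 ± 0.32, adjusted p = 0.00295), both regulators of transcription, overlapped more, with 9 and 2 batch 1 libraries in that range. Smad3, a transducer of TGF-beta signals, did not overlap: its values were 15.5 to 23.3 CPM and 25.6 to 36.4 (0.68 ± 0.05, adjusted p = 2.29e-11). Blcap (medians 31.9 and 45.2 CPM, 0.50 ± 0.04) did not overlap either, and Ky, a muscle Z-disc protein (13.3 and 23.5, 0.84 ± 0.07), Cldn12 (16.8 and 26.7, 0.63 ± 0.06) and Tnfaip2 (30.5 and 48.1, 0.67 ± 0.06) overlapped through that library alone. Lars2, the mitochondrial leucyl-tRNA synthetase, had medians of 1810 and 2542 CPM (0.58 ± 0.19, adjusted p = 0.0211). Lars2 codes for a protein but was entered in the list of small structural RNAs. Of the 6 entries tested, 3 were higher, Lars2 among them, and 0 lower, beside 22.2% and 16.2% of all genes.

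Whether the batch difference was the same in the 4 genotypes was tested with the 3 interaction terms together. This called 788 genes (4.92%), with 3997 at an unadjusted p under 0.05, but 84 without the library labelled MHC CRE Only 1-3, of which 78 were among the 788. Leaving out any 1 of the 3 MHC CRE Only libraries of batch 2 gave 0 calls by edgeR's test (3587, 3651 and 3262 genes at an unadjusted p under 0.05). The count rose to 1470 without FKl/l MCK+ 1-3, 1287 without MHC CRE Only 1-1 and 1232 without FKl/l MHC+ 2-1. It fell to 513, 510, 392, 376, 372, 331, 305 and 224 without FKl/l 2-2, FKl/l MCK+ 2-1, FKl/l MHC+ 1-2, FKl/l 2-1, FKl/l MHC+ 2-2, FKl/l MCK+ 2-2, FKl/l MHC+ 1-3 and FKl/l 2-3. Metabolic and calcium-handling genes were among the 788: 7 of the 23 tricarboxylic acid cycle genes and 10 of the 29 calcium-handling genes. For Atp2a2 the log2 fold change was 0.86 in FKl/l, 0.04 in MHC CRE Only, 0.72 in FKl/l MCK+ and 0.60 in FKl/l MHC+ (interaction adjusted p = 0.0286, 0.0745 without that library). Acsl1 had 0.81, 0.05, 0.60 and 0.79 in the same order (0.0251, 0.0534 without it), and Pdha1 had 0.68, 0.18, 0.42 and 0.88 (0.0260, 0.0549 without it). Among genes also called between batches, the 4 smallest interaction p-values belonged to Ccng1, a p53 target, Klhdc1, Mzt1 and Vegfa, the endothelial growth factor, which stayed called without the library, at 0.0494, 0.0494, 0.0494 and 0.0398. Vegfa was 0.86 higher in FKl/l MHC+ and 0.10, 0.30 and 0.04 higher in FKl/l, MHC CRE Only and FKl/l MCK+.

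The lists of respiratory chain subunits, ribosomal proteins and mitochondrial mRNAs had medians below 0 in each genotype. The median over nuclear respiratory chain subunits was -0.29 in FKl/l, -0.27 in MHC CRE Only, -0.19 in FKl/l MCK+ and -0.34 in FKl/l MHC+, and 1 of the 78 was among the interaction calls. For cytosolic ribosomal proteins the medians were -0.23, -0.25, -0.17 and -0.41 with no such call. The mitochondrial mRNAs had -0.17, -0.84, -0.47 and -0.55. Immediate early genes had 0.24, 0.38, 0.68 and 0.63, with no interaction call, and tricarboxylic acid cycle genes 0.22, -0.02, 0.21 and 0.24. In MHC CRE Only the medians of the fatty acid, ion channel and calcium lists were -0.05, -0.01 and -0.01, and that of branched-chain amino acid breakdown was 0.05. Of the 3 batch 1 libraries of this genotype, 1 is MHC CRE Only 1-3. With it left out, an alternative chosen after the data were seen, these medians were -0.07, 0.05, 0.0048 and -0.0026, that of the tricarboxylic acid cycle was -0.05, and those of respiratory chain subunits and ribosomal proteins were -0.35 and -0.37. In the same fit Atp2a2, Acsl1 and Pdha1 differed by 0.21, 0.20 and 0.29 in MHC CRE Only.

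**Figure D5:**
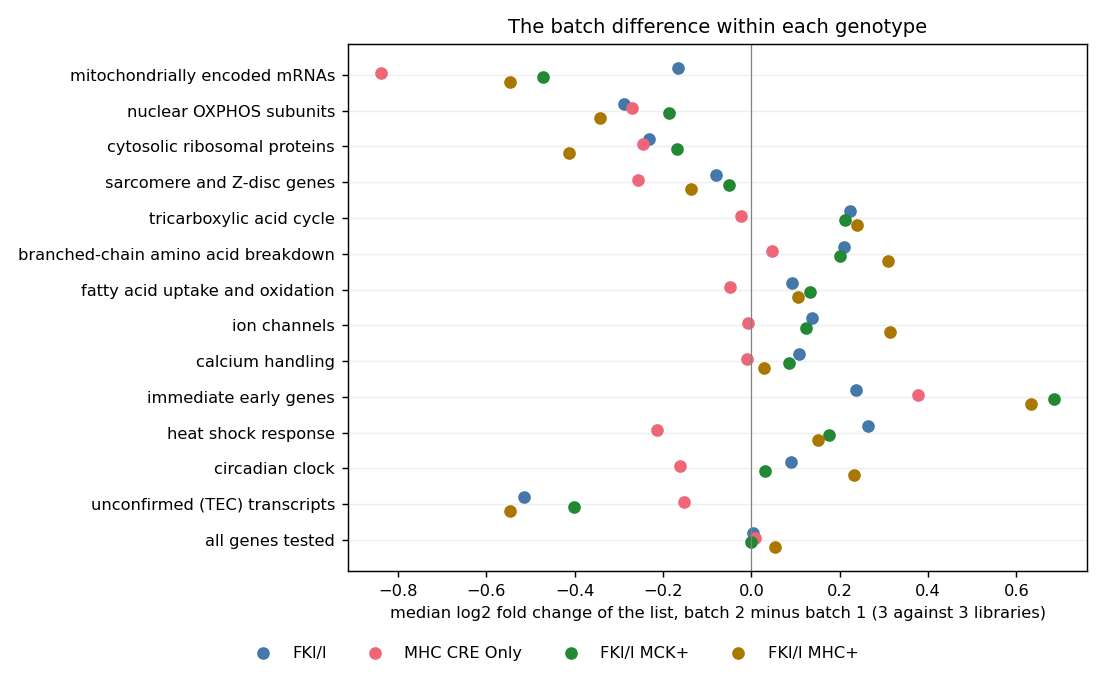
Median log2 fold change (batch 2 minus batch 1, horizontal axis) of gene lists within each genotype, 3 against 3 libraries, with 1 coloured point per genotype. Lists of mitochondrial mRNAs, respiratory chain subunits and ribosomal proteins are below 0 in all 4 genotypes, and the MHC CRE Only points of the metabolic lists lie nearest 0 or below it, such as -0.02 for the tricarboxylic acid cycle beside 0.21 to 0.24 in the others. The MHC CRE Only points include the library labelled MHC CRE Only 1-3.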

How the data were processed

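Total RNA of whole hearts had been sequenced in 24 libraries, and the deposited table held whole-number counts per gene. Per the submitters' processing notes, bcl2fastq 2.17, FastQC, Trim Galore, STAR, RSEM and the build mm10 were used; the sources used here do not give their order, the annotation, the strand setting or any rounding. Of 56384 rows, 3660 were named by a transcript and stayed out of library sizes and tests, and 5 deposited tables comparing genotypes were not used. Gene classes and coordinates came from GENCODE M21 (GRCm38) and promoters from RefSeq (GRCm38.p6).

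Counts were tested in R 4.3.3 with edgeR 4.0.16's quasi-likelihood test on genotype and batch, with TMM scaling, edgeR's filter on low counts and Benjamini-Hochberg adjustment (threshold 0.05) over 16018 genes. Every adjusted p comes from that fit unless another is named. Values after ± are standard errors of log2 fold changes, or SDs where stated. The mitochondrial share was tested by exact permutation within genotype. The fit was tested on simulated data. Alternatives included RLE factors, no scaling, other filters, limma 3.58.1, DESeq2 1.42.0 and each library left out. Genes named were Fkbp1a, the called genes largest in difference, smallest in p or most abundant (at least 5 CPM where ranked by difference), up to 5 called members of each list, and the called genes with the 4 smallest interaction p-values; others are given as values, and a few that these rules pick are not reported here. The members and gene lists were chosen with earlier results of these data known. Depth was 27799403 to 40412640 counts in gene rows per library.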

Additional observations from a re-analysis of the deposited data

Results flagged for a closer look

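The batch difference depended on genotype, by the test of the interaction terms, in 788 genes, and 21 of the genes described are among them. In metabolism these were Pdha1 (interaction adjusted p = 0.0260), Dld (0.0385), Dlat (0.0327), Acsl1 (0.0251), Hadhb (0.0327), Aldh6a1 (0.0260), Acadsb (0.0392), Ivd (0.0292) and Gys1 (0.0299). In calcium handling and excitation they were Atp2a2 (0.0286), Pln (0.0436), Ryr2 (0.0355) and Cacnb2 (0.0433). The others were Klf15 (0.0251), Pm20d2 (0.0433), Taco1 (0.0304), Meg3 (0.0344), Ccng1 (0.0251), Klhdc1 (0.0251), Mzt1 (0.0251) and Vegfa (0.0251). Without the library labelled MHC CRE Only 1-3, Ccng1, Klhdc1, Mzt1 and Vegfa stayed under 0.05 and the other 17 did not. With MHC CRE Only 2-1, 2-2 or 2-3 left out instead, 0 genes were called, these included.

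A row outside the gene table, named for the ribosomal RNA transcript CT010467.1 (chr17:39846353-39848201, minus strand), held a median of 1.55% of all counts in batch 1 (0.785% to 2.06%) and 2.715% in batch 2 (1.51% to 4.20%). In batch 2, 8 of the 12 libraries lay above the highest of batch 1 and 11 above its median. Lars2, the gene of mitochondrial leucyl-tRNA synthetase, differed between the batches by 1.41 on the log2 scale in FKl/l MCK+ and had its highest levels in the 3 libraries of that genotype in batch 2, at 4424, 3790 and 3560 CPM. In the ribosomal RNA row FKl/l MCK+ 2-1, 2-2 and 2-3 held 4.20%, 2.90% and 3.60% of all counts, and FKl/l 2-2 held 3.16%. Whether the Lars2 row and that row share reads was not tested.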

How the results depend on the processing

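Leaving out each library in turn gave 5775 to 6706 called genes, 3146 to 3940 higher, 2457 to 2836 lower, 245 to 949 without overlap, 0 to 1470 interaction calls and a mitochondrial share difference of -6.35 to -5.54 points. Of 135 genes described, 133 were called, and 3 lost the call in such a fit: mt-Co1, Hspa1a and Uqcrc2. Without scaling 6950 genes were higher, 1024 lower and 1061 without overlap, mt-Co1 became 0.0095 and the median of sarcomere and Z-disc genes 0.022, an alternative for lists chosen after seeing the data. Against a fold of 1.2 there were 1227 calls (474 higher, 753 lower). Within 1 genotype the calls were 3187 in FKl/l (1736 higher, 1451 lower), 485 in MHC CRE Only (161, 324), 2723 in FKl/l MCK+ (1652, 1071) and 3580 in FKl/l MHC+ (1785 higher), and the mitochondrial share differed by -2.87, -8.78, -5.00 and -6.43 points with exact p of 0.4, 0.1, 0.3 and 0.1. Leaving out all of FKl/l MCK+ gave 2265 higher and 2432 lower, so that 48.2% of calls were higher instead of 57.8%. Genes without overlap numbered 1653 without MHC CRE Only, 492 without FKl/l MHC+ and 1101 without FKl/l 1-1 and the libraries labelled MHC CRE Only 1-3 and 2-3, where 63 interaction calls were left; DESeq2 made 1794. In MHC CRE Only alone, which includes MHC CRE Only 1-3, the sign turned for Uqcrc2 (-0.016), Dlat (-0.0017), Ryr2 (-0.059), Cacnb2 (-0.0023), Nr4a3 (-0.18), Hspa1a (-0.26), Bag3 (-0.083), Nr1d2 (-0.078), Klf15 (-0.13), Tsc22d3 (-0.022), Ccng1 (-0.21) and Klhdc1 (-0.12), and in FKl/l MHC+ alone for Lars2 (-0.0058). The cause of these changes was not tested.

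No pairing by replicate number was seen in expression: over 12 pairs the correlation of deviations ran from -0.18 to 0.0919, and 2 libraries correlated best with their own number. Whether the numbers pair libraries in another way is not stated in the labels. With a replicate block 5419 genes were called, 3136 higher and 2283 lower, and mt-Co1, Fos, Hspa1b and Hspa1a were not called.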
